A study of Rattus norvegicus with 21 samples.

Results

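The comparison described here set livers of male rats given 2-ethylhexyl diphenyl phosphate (EHDP, spelled EDHP in the sample labels) at 244.6 mg/kg against livers of rats given the corn oil vehicle. EHDP is a phosphate ester that is added to plastics to soften them and slow their burning, and the National Toxicology Program tested it at over 99% purity. The arrays were chosen by the dose in their titles: 3 of the 21 arrays carried 244.6 mg/kg and 6 carried 0 mg/kg, and the other 4 doses (61.2, 122.5, 489.2 and 978.5 mg/kg) had 3 arrays each. All animals were Harlan Sprague-Dawley rats, dosed by gavage once daily on 4 days and killed on day 5, and their age was not given in the sources used here. The treatment protocol speaks of 5 vehicle rats, while 6 vehicle arrays were labelled; each was used as 1 sample. RNA came from pieces of the left liver lobe, so every value is an average over all the cells of the tissue, and fewer cells of a type cannot be told apart from less RNA per cell.

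The liver meets foreign compounds first after uptake from the gut. Lipid-soluble esters are split by carboxylesterases, oxidised by cytochromes P450, coupled to glutathione, glucuronic acid or sulfate, and pumped into bile or blood. The nuclear receptors CAR and PXR switch on many of these enzymes, and the transcription factor NRF2 switches on glutathione and quinone metabolism when its sensor protein is modified by electrophiles. Hepatocytes of an adult rat rarely divide, but several CAR activators are known in rodents to start a short wave of DNA synthesis and mitosis in the first days of dosing.

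At 244.6 mg/kg, 420 of 14218 measured genes differed from vehicle (limma, adjusted p below 0.05), which is 2.95% of the genes tested. Of these, 359 genes rose (2.52%) and 61 fell (0.429%), so 85.5% of the changes were rises. These shares of all genes are the background for each count of a list or family given below. A change of at least 2-fold was seen for 96 of the rises and for 6 of the falls. All 3 treated arrays lay above all 6 vehicle arrays for 343 of the 359 rises, and below all of them for 54 of the 61 falls; the same separation held for 5.51% and 3.07% of all genes tested. Of the 30 largest called rises, 14 belonged to lists of mitosis or DNA replication genes, 5 to lists of CAR and PXR targets, NRF2 targets or conjugation and export, and 11 to no list used here. Over all calls, 267 of the 359 rises and 48 of the 61 falls were in no list. The lists do not hold every gene of a theme. Ect2 and Cdca3 are genes of division outside the mitosis list, and Pclaf is a gene of S phase outside the replication list. The counts by list may thus understate the share of cell division. The largest falls were of Ubd, a ubiquitin-like modifier induced by cytokines, and of Slc6a6, the taurine transporter.

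**Figure D1:**
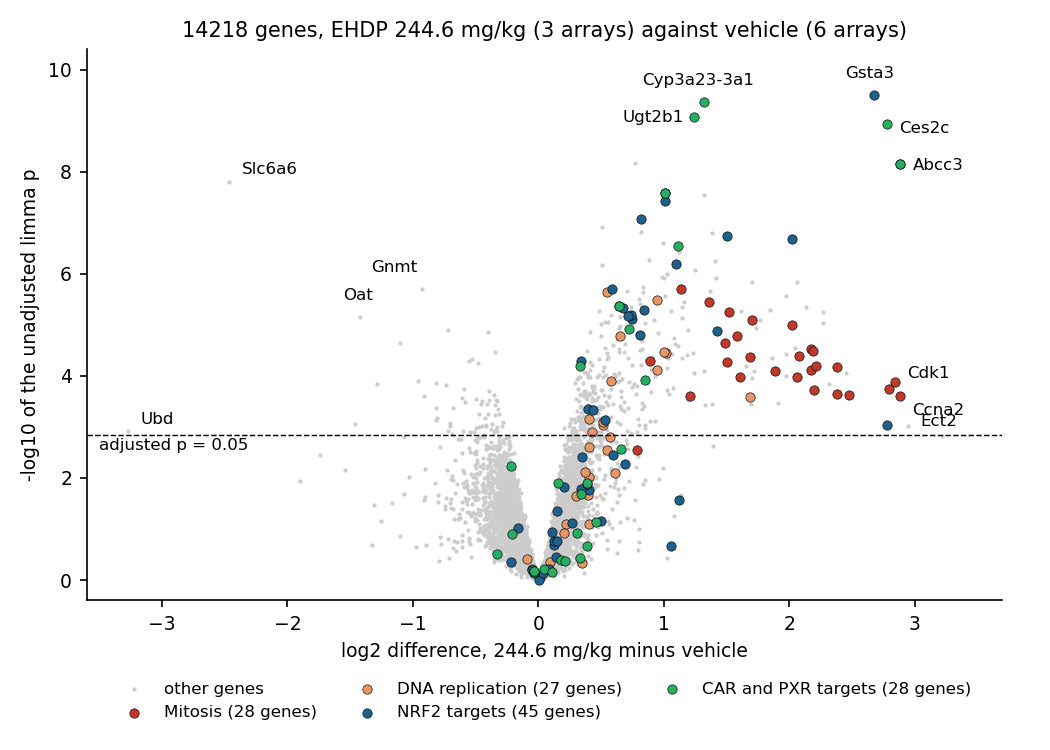
Log2 difference of each gene, 244.6 mg/kg minus vehicle (x axis), against the minus log10 of its unadjusted limma p (y axis), with 4 gene lists in colour and genes of both the NRF2 and the CAR and PXR lists drawn in green. The mitosis genes (red) lie far to the right at moderate p, while Cyp3a23-3a1, Gsta3, Ugt2b1, Ces2c and Abcc3 have the smallest p among the genes labelled, and few genes lie on the left above the dashed line.

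The 21 arrays were alike in overall signal, with median log2 values between 6.33 and 6.41. Pairs of arrays correlated at r = 0.9947 to 0.9955 within the 244.6 mg/kg group and at r = 0.9867 to 0.9958 among vehicle arrays over all genes, and vehicle replicate 6 stood lowest, with a mean r of 0.989 with the other vehicle arrays over all probe sets. Hepatocyte markers were high in both groups: the mean log2 level of the 19 marker genes was 13.69 to 13.70 at 244.6 mg/kg and 13.64 to 13.79 in vehicle livers. The count of called genes leaned on single arrays: without replicate 1 of 244.6 mg/kg it was 112 (105 higher and 7 lower), and without replicate 2 it was 230. Changes called in the fit of all arrays and in each of the 9 fits that left out 1 of these 9 arrays numbered 100 rises and 7 falls. The p-values rest on the spread within groups over all 21 arrays, and the labels say nothing of litters or cages.

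Among the lists counted, mitosis had the largest share of called genes. The lists were chosen with earlier results of these data known, so this rank is only a description. Of 28 measured mitosis genes, 26 rose, by 0.89 to 2.88 on the log2 scale, and the median difference over the list was 1.95, against -0.0081 over all genes. For 27 of the 28, all 3 treated arrays lay above all 6 vehicle arrays. The list holds the kinases and cyclins that start mitosis, the checkpoint proteins that hold it until chromosomes are attached, and the motors and scaffold proteins that build the spindle and separate the daughter cells.

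The promoters of 4 of these genes are shown because mitosis genes as a class are known to share short promoter elements. Capitals mark the cell cycle homology region, CHR (TTTGAA or its reverse complement), and the CCAAT box (CCAAT or its reverse complement). Each window runs from 250 bases before to 50 bases after the annotated start, on the gene's own strand, in the RefSeq build GRCr8.
Cdk1 promoter, chr20:19265043-19265342 (plus strand): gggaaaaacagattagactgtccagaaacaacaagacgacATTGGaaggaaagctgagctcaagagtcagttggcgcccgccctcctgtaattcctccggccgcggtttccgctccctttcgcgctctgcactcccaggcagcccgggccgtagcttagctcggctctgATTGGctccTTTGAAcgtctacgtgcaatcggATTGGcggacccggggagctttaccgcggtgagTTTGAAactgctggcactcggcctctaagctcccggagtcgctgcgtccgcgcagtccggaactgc
Ccnb2 promoter, chr8:79981609-79981908 (minus strand): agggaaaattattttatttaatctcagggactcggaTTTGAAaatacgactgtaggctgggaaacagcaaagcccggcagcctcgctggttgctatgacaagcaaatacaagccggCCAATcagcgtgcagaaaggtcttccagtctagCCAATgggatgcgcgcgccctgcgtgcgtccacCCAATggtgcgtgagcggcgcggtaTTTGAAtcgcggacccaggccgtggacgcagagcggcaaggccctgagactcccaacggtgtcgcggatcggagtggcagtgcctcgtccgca
Mki67 promoter, chr1:199952544-199952843 (minus strand): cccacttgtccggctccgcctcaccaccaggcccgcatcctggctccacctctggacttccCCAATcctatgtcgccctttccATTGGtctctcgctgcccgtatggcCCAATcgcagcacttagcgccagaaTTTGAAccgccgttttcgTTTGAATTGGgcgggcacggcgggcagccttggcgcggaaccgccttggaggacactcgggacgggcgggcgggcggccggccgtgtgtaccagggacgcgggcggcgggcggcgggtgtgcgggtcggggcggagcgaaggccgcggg
Top2a promoter, chr10:84473044-84473343 (minus strand): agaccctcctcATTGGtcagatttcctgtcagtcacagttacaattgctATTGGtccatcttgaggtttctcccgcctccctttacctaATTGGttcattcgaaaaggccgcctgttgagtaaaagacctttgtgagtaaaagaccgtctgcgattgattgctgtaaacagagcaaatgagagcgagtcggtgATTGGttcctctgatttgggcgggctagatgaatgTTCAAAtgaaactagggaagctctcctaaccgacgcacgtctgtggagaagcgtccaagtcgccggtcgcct
The Cdk1 and Ccnb2 windows each held 2 CHR and 3 CCAAT matches, the Mki67 window 2 and 4, with a CHR and a CCAAT match overlapping, and the Top2a window 1 and 4. A CHR match was present in 15 of the 22 called mitosis genes with a promoter in the table (68.2%), against 13.3% of the 11734 measured genes with one. A CCAAT box was present in 16 of the 22 (72.7%), against 38.6%, and both motifs in 13 of the 22 (59.1%), against 5.4%. Over all 24 measured mitosis genes with a promoter, called or not, the shares were much the same (66.7%, 75.0% and 58.3%). The shares therefore describe the list, and a link of the motifs to the rise was not tested. The match is of letters only, and no binding was measured.

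Cdk1, the kinase that drives entry into mitosis, had log2 levels of 9.61, 9.52 and 8.30 at 244.6 mg/kg, against 6.39, 6.09, 5.17, 6.34, 7.16 and 6.64 in vehicle livers. The groups did not overlap, and the third treated array lay about midway between the others and the vehicle range. The log2 difference was 2.84 ± 0.60 (SE; limma, adjusted p = 0.00983), a 7.18-fold rise. Its partner cyclins followed the same order of arrays. Ccna2, the cyclin of S phase and early mitosis, had 8.51, 8.30 and 6.95 at 244.6 mg/kg, against 5.06, 4.77, 4.00, 5.02, 5.82 and 5.54 in vehicle livers, a difference of 2.88 ± 0.64 (limma, adjusted p = 0.0147). Ccnb1 and Ccnb2, the cyclins that activate Cdk1 at mitosis, rose by 2.38 ± 0.53 and 2.48 ± 0.55. Wee1, the kinase that holds Cdk1 inactive, rose by a smaller 0.48 ± 0.10 (limma, adjusted p = 0.00827).

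Mki67, whose protein Ki-67 coats mitotic chromosomes and is the usual stain for dividing cells, had log2 levels of 8.79, 8.30 and 7.47 at 244.6 mg/kg, against 5.48, 5.24, 4.45, 5.51, 6.31 and 5.37 in vehicle livers. No vehicle array reached the lowest treated one, which the same naming rule required, and the difference was 2.79 ± 0.61 (limma, adjusted p = 0.0122). Top2a, the topoisomerase that untangles sister chromosomes, had 9.21, 9.65 and 8.06, against 6.67, 6.54, 5.96, 6.62, 7.27 and 6.52 in vehicle livers, a difference of 2.38 ± 0.47. Genes of division outside that list rose too. Ect2, which places the contractile ring that cleaves the cell, showed the largest called rise named here, 2.95 ± 0.76 (limma, adjusted p = 0.0368), and Cdca3, which helps mark mitotic regulators for destruction, rose by 2.45 ± 0.50. Cdkn3, a phosphatase that acts on Cdk1 and its relatives and is also outside the list, differed by 3.21 ± 0.87 without passing the test (limma, adjusted p = 0.0502).

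The genes of the spindle and its checkpoint named next differed less than the largest rises above, with smaller errors. They were named for a small p or after their values were seen, so this contrast cannot be read as a trait of such genes. Kif11, the motor that pushes the spindle poles apart, had log2 levels of 7.70, 7.65 and 6.81 at 244.6 mg/kg, against 5.66, 5.67, 5.16, 5.83, 5.89 and 5.89 in vehicle livers, a difference of 1.70 ± 0.28 (limma, adjusted p = 0.00161). Aurkb, the kinase that corrects faulty chromosome attachments, rose by 2.02 ± 0.34, and its partner Birc5 (survivin) by 1.52 ± 0.25. The checkpoint genes Bub1, Bub1b and Ttk rose by 2.18 ± 0.40, 1.36 ± 0.21 and 1.58 ± 0.28 (Ttk by 0.80 with the mean of its probe sets); Bub1, Ttk and Hmmr, a spindle protein that rose by 2.19 ± 0.41, were picked for naming after their values were seen. Melk, a kinase found in dividing cells, rose by 1.14 ± 0.17.

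The 2 mitosis genes that did not pass are named here after their values were seen. Cenpe, a motor at the kinetochore, differed by 0.79 ± 0.23 (limma, adjusted p = 0.0767), with all 3 treated arrays above all vehicle arrays. Kif23, a motor of the cleavage site, differed by 0.02 ± 0.10 on the probe set used; the mean of its 2 probe sets gave 0.87 (limma, adjusted p = 0.00142), so they disagree. Families were also sorted by symbol after the values were seen, and are given as a description beside the 2.52% of all genes that rose. Rises were called for 9 of 17 Cenp genes (kinetochore proteins), 9 of 30 Kif genes (kinesin motors), 3 of 3 Ska genes (microtubule attachment), 5 of 12 Ncap and Smc genes (chromosome condensation and cohesion), 4 of 8 Cdca genes (cell division cycle associated) and 2 of 6 Fanc genes (DNA crosslink repair).

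The mitosis calls depended on which treated arrays were in the fit. Taking each array's median difference from the vehicle mean over the 28 genes, replicates 1, 2 and 3 of 244.6 mg/kg stood at 2.38, 2.18 and 1.26, against -0.02, -0.08, -0.51, 0.08, 0.54 and 0.09 in vehicle replicates 1 to 6. Without replicate 1, 8 of the 28 genes were called; without replicate 2, 15 were. Cdk1, Ccna2, Ccnb1, Ccnb2, Mki67 and Top2a all missed the threshold in both fits, while their differences stayed at 2.04 or more. Aurkb, Birc5, Bub1, Bub1b, Hmmr, Kif11, Melk and Ttk were called in all 9 fits that left out an array. Ect2 lost its call in 7 of those 9 fits, and Cdca3 in 1. Only 1 of the 28 genes lay above the median level of all genes, so that their folds start from dim signals and may be understated.

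Genes of DNA replication moved with them to a smaller extent. Of 27 measured, 12 rose and none fell, with a median log2 difference of 0.43. Pclaf, a clamp-binding protein of S phase that is not in the list, had log2 levels of 9.64, 9.49 and 8.42 at 244.6 mg/kg, against 7.34, 6.63, 6.03, 6.71, 7.56 and 6.90 in vehicle livers. The difference for Pclaf was 2.32 ± 0.49 (limma, adjusted p = 0.0105). Rrm1, the large subunit of the enzyme that makes deoxynucleotides, had 9.0, 8.80 and 8.51 at 244.6 mg/kg, against 7.74, 7.66, 7.62, 7.58, 7.97 and 7.96 in vehicle livers, without overlap. Rrm1 rose by 1.02 ± 0.19, Tk1, which salvages thymidine, by 1.0 ± 0.19, and Rfc4, a subunit of the clamp loader, by 0.95 ± 0.15. Pole, the leading-strand polymerase, and Gins1, a part of the replicative helicase, rose by 0.65 ± 0.12 and 0.55 ± 0.08.

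The replication list stood at 0.55, 0.45 and 0.37 in the 3 treated arrays, against -0.10 to 0.12 in the 6 vehicle arrays. Without replicate 1 of 244.6 mg/kg 3 of the 27 genes were called, and without replicate 2, 6. Gins1, Pole and Rfc4 were called in all 9 fits that left out an array. Pclaf missed the threshold without either replicate 1 or 2, and Rrm1 and Tk1 without replicate 1. No CHR match was found in the 12 called replication genes, all of which had a promoter in the table, and 8 of the 12 (66.7%) held a CCAAT box. Over all 23 measured replication genes with a promoter, 2 held a CHR match (8.7%) and 13 a CCAAT box (56.5%). Cdkn1a, the p53-induced brake on cyclin-dependent kinases, differed by -0.68 ± 0.24 (-0.29 with the mean of its probe sets) without passing the test (limma, adjusted p = 0.168), and Mdm2, the p53 antagonist and target, by 0.23 ± 0.09 (adjusted p = 0.222). Of 18 measured p53 targets and growth arrest genes 1 was called, near the 2.95% of all genes: Psrc1, a spindle protein, rose by 0.40 ± 0.09 (limma, adjusted p = 0.0231). That list held no call without replicate 1 or 2 of 244.6 mg/kg, with median centring, with only the arrays compared in the fit, or with a floor under low signals.

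The mitosis genes did not follow the dose. The median log2 difference of the list from vehicle was 0.42 at 61.2, 0.43 at 122.5, 1.95 at 244.6, -0.21 at 489.2 and 0.30 at 978.5 mg/kg, and 0 of the 28 genes were called at any dose other than 244.6 mg/kg. These comparisons share the vehicle arrays, so the direct test against each neighbouring dose is given. Against 489.2 mg/kg, 26 of the 28 mitosis genes and 10 of the 27 replication genes were higher at 244.6 mg/kg, where 1.5% of all genes were (limma, adjusted p below 0.05). Against 122.5 mg/kg none was called, although the list's median difference was 1.47.

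Single arrays of the lower doses also stood high. At 61.2 mg/kg the per-array list medians were 1.29, 0.18 and -0.34, and at 122.5 mg/kg they were -0.51, 0.71 and 1.01, so the highest array at 61.2 mg/kg lay just above the lowest at 244.6 mg/kg. At 489.2 mg/kg they were -0.40, 0.23 and -0.46, and at 978.5 mg/kg 0.68, -0.30 and 0.48.

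**Figure D2:**
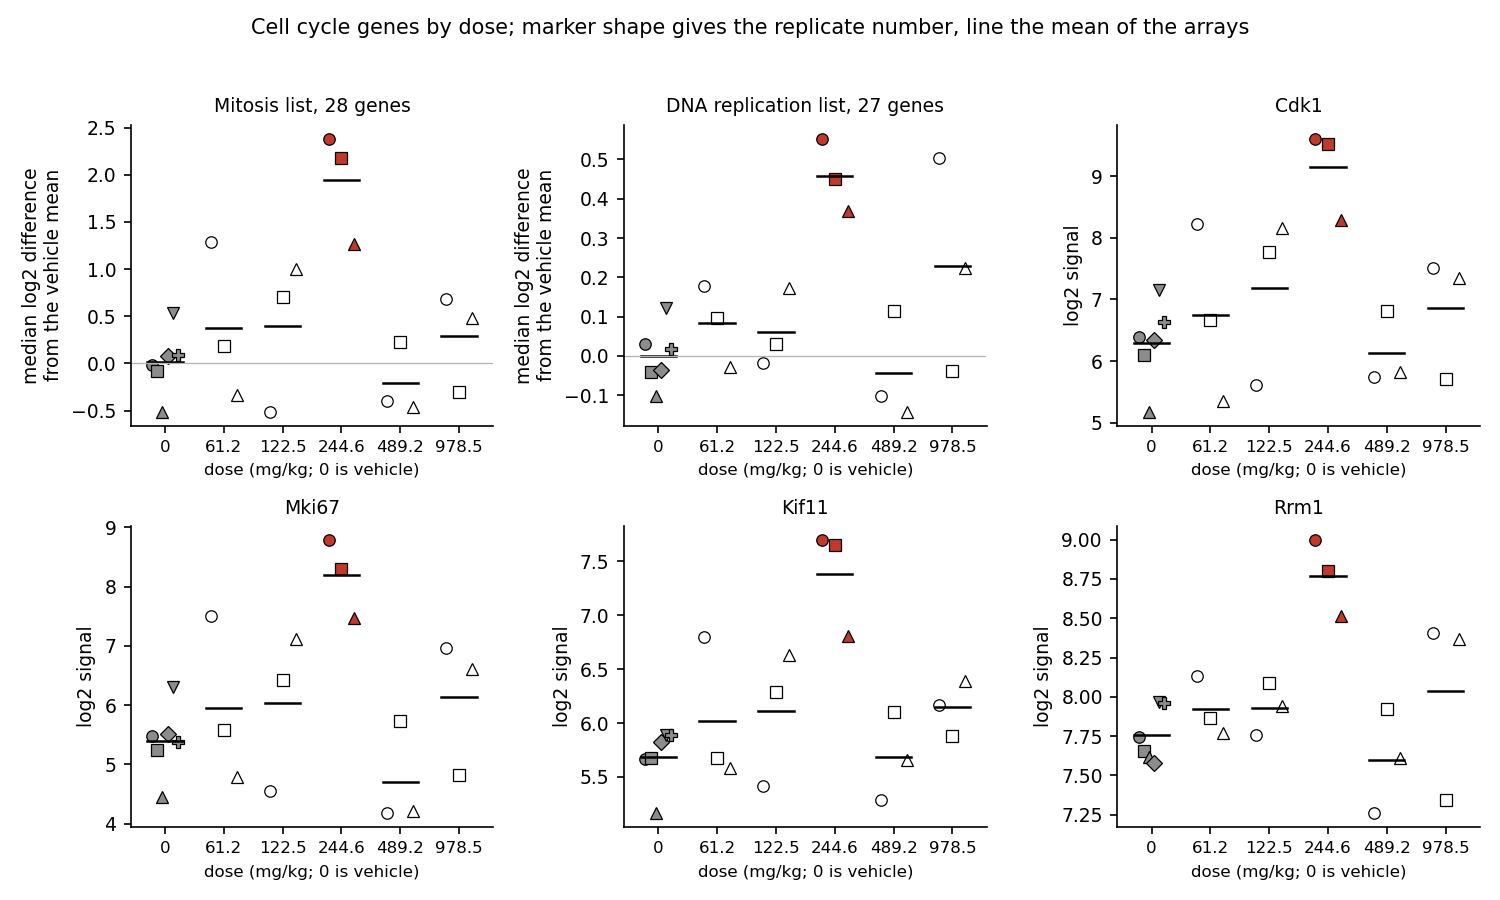
Mitosis and DNA replication lists as the median log2 difference of each array from the vehicle mean, and log2 signals of Cdk1, Mki67, Kif11 and Rrm1, by dose; each point is an array (grey vehicle, red 244.6 mg/kg, white the other doses) and each line the mean of a group. The 244.6 mg/kg arrays are highest on average in all 6 panels, and the arrays of 61.2 and 122.5 mg/kg are spread over much of the range between.

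Enzymes and transporters of foreign compounds were also among the rises. Of 28 measured CAR and PXR targets, 10 rose and none fell (median 0.34). Of 48 genes of conjugation and export, 16 rose and none fell (median 0.27). These lists and that of NRF2 targets share members, and together they held 37 different genes that rose. The conjugation and export count was 10 without replicate 1 of 244.6 mg/kg, and 9 genes of that list were called in all 9 fits that left out an array. Ces2c, a carboxylesterase that cleaves ester bonds, had log2 levels of 12.26, 11.32 and 11.71 at 244.6 mg/kg, against 9.21, 9.13, 8.75, 9.19, 8.52 and 9.10 in vehicle livers. The groups were far apart, with a difference of 2.78 ± 0.26 (limma, adjusted p = 4.19e-06), a 6.86-fold rise. Ces2c was the only one of 17 measured carboxylesterases and related esterases that was called. Probes of such gene families can bind the RNA of close relatives, and no test of this was made.

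Cyp3a23-3a1, the main inducible cytochrome P450 of the rat 3A family and a PXR target, had log2 levels of 14.66, 14.62 and 14.47, against 13.44, 13.11, 13.28, 13.32, 13.16 and 13.23 in vehicle livers. Its difference of 1.32 ± 0.12 shared the smallest adjusted p of all genes with Gsta3 (limma, adjusted p = 3.04e-06). The other P450 genes moved less. Cyp3a18 rose by 0.73 ± 0.13 and Cyp2c6v1 by 0.33 ± 0.07, the second losing its call without replicate 1 of 244.6 mg/kg (limma, adjusted p = 0.0885). Of 32 measured genes of the Cyp families 1 to 3, sorted by symbol after the values were seen, these 3 were the ones that rose. The male-specific steroid hydroxylase Cyp2c11 differed by -0.10 ± 0.07 (limma, adjusted p = 0.612). Alas1, the first and limiting enzyme of haem synthesis, differed by 0.66 ± 0.19 without passing the test (limma, adjusted p = 0.0738).

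Of 11 measured targets of the aryl hydrocarbon receptor, which binds dioxins, Nqo1 alone rose, and Nqo1 is also a target of NRF2. Cyp1a1, the classical target of that receptor, had 7.00, 5.92 and 6.26 at 244.6 mg/kg, against 5.58, 6.08, 5.89, 5.79, 5.90 and 6.12 in vehicle livers, so that 2 of the 3 treated arrays exceeded the vehicle range. The difference was 0.50 ± 0.31 (limma, adjusted p = 0.519). Cyp1a2 differed by -0.38 ± 0.13 (limma, adjusted p = 0.155).

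Conjugation rose at several steps. Gsta3, a glutathione transferase, had log2 levels of 10.82, 10.75 and 10.56 at 244.6 mg/kg, against 8.09, 7.54, 7.96, 8.36, 8.39 and 7.83 in vehicle livers. The treated arrays lay close together and well above the others, with a difference of 2.68 ± 0.23 (limma, adjusted p = 3.04e-06), a 6.41-fold rise. Gsta4, which takes up lipid peroxidation aldehydes, rose by 0.82 ± 0.10 and the microsomal transferase Mgst2 by 0.77 ± 0.08. Ugt2b1, a glucuronosyltransferase, had 14.17, 13.91 and 14.03 at 244.6 mg/kg, against 12.77, 13.10, 12.68, 13.07, 12.46 and 12.70 in vehicle livers, and rose by 1.24 ± 0.11 (limma, adjusted p = 4.08e-06). Sult2a6, a sulfotransferase of hydroxysteroids, rose by 1.04 ± 0.23, a call lost without replicate 1 or 2 of 244.6 mg/kg. By symbol, 9 of 23 Gst and Mgst genes and 6 of 9 Ugt genes rose.

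Abcc3, the pump that moves glucuronides from the hepatocyte back to blood, had log2 levels of 10.56, 9.16 and 9.73 at 244.6 mg/kg, against 7.14, 6.67, 6.65, 7.24, 6.98 and 6.90 in vehicle livers. Its treated arrays were spread over more than 1 log2 unit, yet all lay above the vehicle range, which its naming rule required. The difference was 2.89 ± 0.30 (limma, adjusted p = 1.66e-05), a 7.40-fold rise. Abcb1a, the drug efflux pump P-glycoprotein, rose by 0.85 ± 0.18, a call lost without replicate 1 of 244.6 mg/kg (limma, adjusted p = 0.124). Ephx1, which opens epoxides, rose by 1.01 ± 0.11.

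Of 42 measured genes of aldehyde and alcohol metabolism, 8 rose and none fell; 5 were called without replicate 2 or 3 of 244.6 mg/kg or vehicle replicate 3, and 3 without replicate 1 of 244.6 mg/kg. Akr7a3, the rat aflatoxin aldehyde reductase, had 13.72, 13.13 and 13.27 at 244.6 mg/kg, against 11.26, 11.26, 11.34, 11.81, 11.25 and 11.20 in vehicle livers, and rose by 2.02 ± 0.26 (limma, adjusted p = 0.000187). Akr1b7, a reductase of aldehydes from lipids, was uneven, with 8.63, 8.74 and 6.66 at 244.6 mg/kg, against 5.03, 4.48, 4.72, 5.78, 6.82 and 4.59 in vehicle livers. The lowest treated array lay within the vehicle range, and the rise of 2.78 ± 0.71 (limma, adjusted p = 0.0362) lost its call in 6 of the 9 fits that left out an array, those without vehicle replicates 1, 2, 3 or 6 and those without replicate 1 or 2 of 244.6 mg/kg. Aldh1a1, the retinal dehydrogenase, rose by 1.12 ± 0.15 and Aox1, an aldehyde oxidase, by 0.59 ± 0.09.

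**Figure D3:**
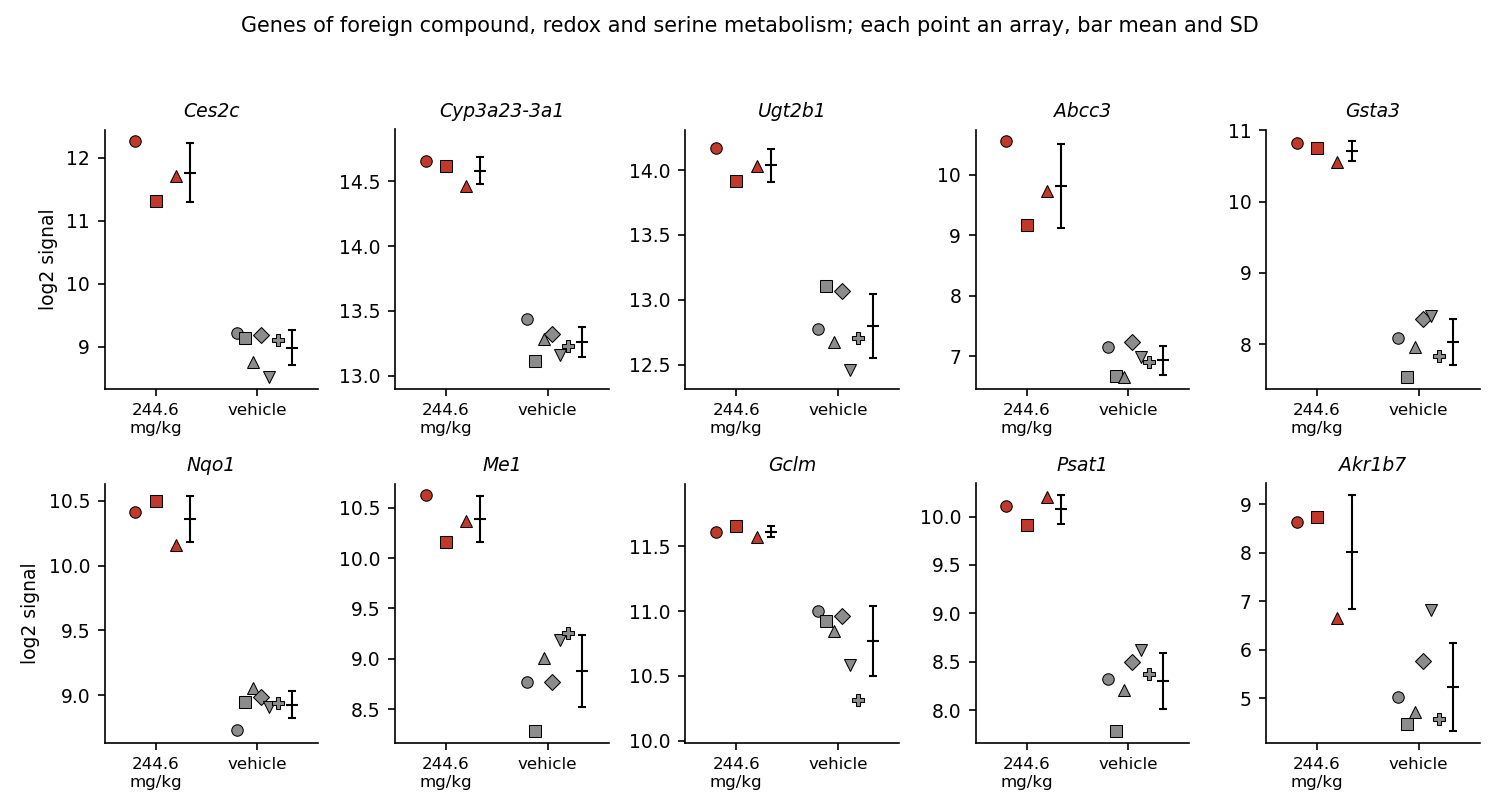
Log2 signals of 10 genes of foreign compound, redox and serine metabolism on each array, 244.6 mg/kg (red) left of vehicle (grey), with the mean and SD beside each group. The 3 treated arrays lie above all 6 vehicle arrays in each panel except that of Akr1b7, where 2 of the 3 do. The rule that named Ces2c, Abcc3 and Gsta3 required this separation.

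Targets of NRF2 rose widely. Of 45 measured, 22 rose and none fell, the median difference was 0.53, and 42 of the 45 means were above vehicle; Gsta3, Abcc3 and Akr7a3 are also in this list. Me1 and Gclm are shown because both are textbook NRF2 targets and their windows held a match to the core of the antioxidant response element (TGACNNNGC or its reverse complement, in capitals); build and window are those given above.
Me1 promoter, chr8:96540195-96540494 (minus strand): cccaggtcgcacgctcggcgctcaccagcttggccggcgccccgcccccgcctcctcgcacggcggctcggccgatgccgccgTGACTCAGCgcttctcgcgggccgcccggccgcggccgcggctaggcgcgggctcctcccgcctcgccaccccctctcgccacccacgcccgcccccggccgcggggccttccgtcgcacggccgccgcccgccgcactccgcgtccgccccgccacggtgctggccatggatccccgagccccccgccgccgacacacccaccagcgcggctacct
Gclm promoter, chr2:213031885-213032184 (plus strand): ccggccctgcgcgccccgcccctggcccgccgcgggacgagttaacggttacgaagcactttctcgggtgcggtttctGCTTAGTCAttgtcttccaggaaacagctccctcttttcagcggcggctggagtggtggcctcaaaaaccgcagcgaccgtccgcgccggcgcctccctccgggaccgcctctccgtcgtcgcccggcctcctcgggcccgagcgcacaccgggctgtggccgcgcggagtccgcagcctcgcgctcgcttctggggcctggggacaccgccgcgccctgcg
That core was present in 7 of the 20 called NRF2 targets with a promoter in the table (35.0%), against 15.2% of all measured genes with one. Over all 39 measured NRF2 targets with a promoter, called or not, it was present in 12 (30.8%). A link of the core to the rise was not tested.

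Me1, the malic enzyme that supplies NADPH, had log2 levels of 10.62, 10.16 and 10.37 at 244.6 mg/kg, against 8.77, 8.28, 9.01, 8.77, 9.19 and 9.25 in vehicle livers. The difference was 1.51 ± 0.19 (limma, adjusted p = 0.00017), with no overlap. Nqo1, a quinone reductase, had 10.41, 10.50 and 10.16 at 244.6 mg/kg, against 8.73, 8.95, 9.05, 8.99, 8.91 and 8.94 in vehicle livers, and rose by 1.43 ± 0.25 (limma, adjusted p = 0.00222). Both subunits of the enzyme that limits glutathione synthesis rose, Gclm by 0.84 ± 0.14 and Gclc by 0.81 ± 0.14; the Gclc call was lost without replicate 1 of 244.6 mg/kg (limma, adjusted p = 0.0507). Pir, an iron-binding protein of the nucleus, rose by 1.01 ± 0.12, and Blvrb, a biliverdin reductase, by 0.68 ± 0.11.

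The NRF2 list was even across the treated animals. Its per-array median was 0.62, 0.46 and 0.53 in the 3 treated arrays, against -0.06 to 0.07 in the 6 vehicle arrays. By dose the list's median was 0.23 at 61.2, 0.17 at 122.5, 0.53 at 244.6, 0.48 at 489.2 and 0.54 at 978.5 mg/kg, and that of the CAR and PXR targets 0.16, 0.21, 0.34, 0.54 and 0.80. Of the 22 called NRF2 targets 17 were called in all 9 fits that left out an array, as were 8 of the 10 called CAR and PXR targets.

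Genes of serine and asparagine synthesis were among the rises. Psat1, the transaminase of serine synthesis, had log2 levels of 10.11, 9.91 and 10.20 at 244.6 mg/kg, against 8.32, 7.79, 8.21, 8.50, 8.63 and 8.38 in vehicle livers, and rose by 1.77 ± 0.30 (limma, adjusted p = 0.00162). Phgdh, the first enzyme of that pathway, rose by 1.33 ± 0.31 and Asns, asparagine synthetase, by 1.19 ± 0.27; both lost the call without replicate 1 or replicate 3 of 244.6 mg/kg. Ddit4, a stress-induced inhibitor of the growth kinase mTORC1, rose by 1.72 ± 0.35, and lost the call without replicate 1 (limma, adjusted p = 0.0571). Slc7a11, the cystine importer, rose by 0.53 ± 0.13, a call lost in 4 of the 9 fits that left out an array (vehicle replicate 3 or 4, 244.6 mg/kg replicate 1 or 3). These 5 were the called members of 45 genes of endoplasmic reticulum and integrated stress, of which 1 remained called without replicate 1 and 2 without replicate 3. Atf3, a stress-induced transcription factor of that list, differed by 0.52 ± 0.21 (limma, adjusted p = 0.262).

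Of 26 measured clock genes, 3 rose and 2 fell, where 2.52% and 0.429% of all genes did. Nr1d1, the repressor REV-ERB alpha, had 7.70, 7.59 and 8.20 at 244.6 mg/kg, against 6.61, 5.77, 6.63, 6.72, 6.13 and 6.81 in vehicle livers, and rose by 1.38 ± 0.32 (limma, adjusted p = 0.0188). Per3, a period gene, rose by 0.80 ± 0.20, and the other called rise was that of Wee1, given above. Npas2, an activator that pairs with BMAL1, fell by 0.81 ± 0.17, and Nfil3, a repressor of clock output, by 0.74 ± 0.16. Dbp, an activator of clock output, differed by 1.14 ± 0.45 without passing the test (limma, adjusted p = 0.24), with the treated arrays at 6.63, 6.11 and 8.01, against 5.44 to 6.10 in vehicle livers. None of the 5 called genes was called without replicate 1 of 244.6 mg/kg, and 1 was called without replicate 3. Per3 differed by 0.44 with the mean of its probe sets; it also lost the call without vehicle replicate 2 or 3, and Wee1 without replicate 2 of 244.6 mg/kg.

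Most falls were in no list. Of 20 uptake transporters 2 fell and of 40 genes listed for amino acid breakdown 3 fell (the synthetase Glul among them), where 0.429% of all genes did. Slc6a6, which imports taurine, had log2 levels of 7.26, 8.05 and 7.48 at 244.6 mg/kg, against 9.96, 9.88, 9.97, 10.48, 10.29 and 9.77 in vehicle livers. The groups were more than 1.5 log2 units apart, the difference was -2.46 ± 0.27 (limma, adjusted p = 3.29e-05), and the second probe set of the gene gave -1.68. Slc22a8, an organic anion transporter, fell by 0.96 ± 0.20, a call lost without replicate 1 or 2 of 244.6 mg/kg. Slc34a2, a sodium phosphate cotransporter, fell by 0.91 ± 0.20, a call lost without replicate 1.

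Oat, ornithine aminotransferase, had 9.09, 10.16 and 9.61 at 244.6 mg/kg, against 10.84, 10.97, 11.10, 10.57, 11.13 and 11.62 in vehicle livers, a difference of -1.42 ± 0.23 (limma, adjusted p = 0.0015). Prodh, proline dehydrogenase, which feeds the same pathway, fell by 0.72 ± 0.12, and Glul, glutamine synthetase of the hepatocytes next to the central vein, by 0.53 ± 0.10. These were the 3 called genes of the list for amino acid breakdown, although Glul makes an amino acid. When the probe sets of each gene were averaged, Prodh differed by -0.37 and kept its call, while Glul differed by -0.29 and lost it (limma, adjusted p = 0.258). Gnmt, which disposes of excess methyl groups, had 11.82, 12.36 and 12.33 at 244.6 mg/kg, against 12.99, 13.21, 13.10, 13.11, 13.15 and 13.04 in vehicle livers, and fell by 0.93 ± 0.14 (limma, adjusted p = 0.000788). Papss2, which makes the sulfate donor, fell by 0.34 ± 0.08, a call lost without replicate 1 of 244.6 mg/kg and with the mean of its probe sets (-0.22; limma, adjusted p = 0.454).

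Ubd showed the largest fall and the least even one. Its log2 levels were 6.21, 6.58 and 6.41 at 244.6 mg/kg, against 10.15, 8.24, 11.42, 9.45, 9.51 and 9.26 in vehicle livers. The treated arrays lay together below a vehicle range of more than 3 log2 units, and the difference of -3.27 ± 0.86 (limma, adjusted p = 0.0425) lost its call in 8 of the 9 fits that left out an array, all but that without vehicle replicate 2, with differences between -3.56 and -2.92. It was the only called gene of 35 for interferon response and antigen presentation. The other falls of 0.80 or more in size that were named by rule were Sez6 (-1.29 ± 0.27), known from neurons; Eri2 (-1.11 ± 0.20), an exonuclease family member; Dab1 (-0.81 ± 0.20), an adaptor of reelin signalling; Synrg (-0.81 ± 0.19), a vesicle coat partner; and Angptl4 (-0.80 ± 0.20), the lipoprotein lipase inhibitor. Of these, Eri2 was called in all 9 fits that left out an array; Sez6 lost the call without replicate 1 of 244.6 mg/kg, Synrg without replicate 1 or 3, Angptl4 without replicate 1 or 3 or vehicle replicate 1 or 6, and Dab1 without any of the 3 treated arrays or vehicle replicates 1, 2 or 3. Averaged probe sets gave smaller falls for Eri2 (-0.67) and Synrg (-0.44), which kept the call, and for Dab1 (-0.25), which lost it (limma, adjusted p = 0.0807).

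The 7 falls called in all 9 such fits were those of Slc6a6, Oat, Eri2, Gnmt, Prodh, Glul and Nsmf, of which Glul lost its call with the mean of its probe sets. Nsmf, a protein that signals from synapse to nucleus in neurons, was picked for naming after its values were seen; it fell by 0.40 ± 0.07 (limma, adjusted p = 0.0022).

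**Figure D4:**
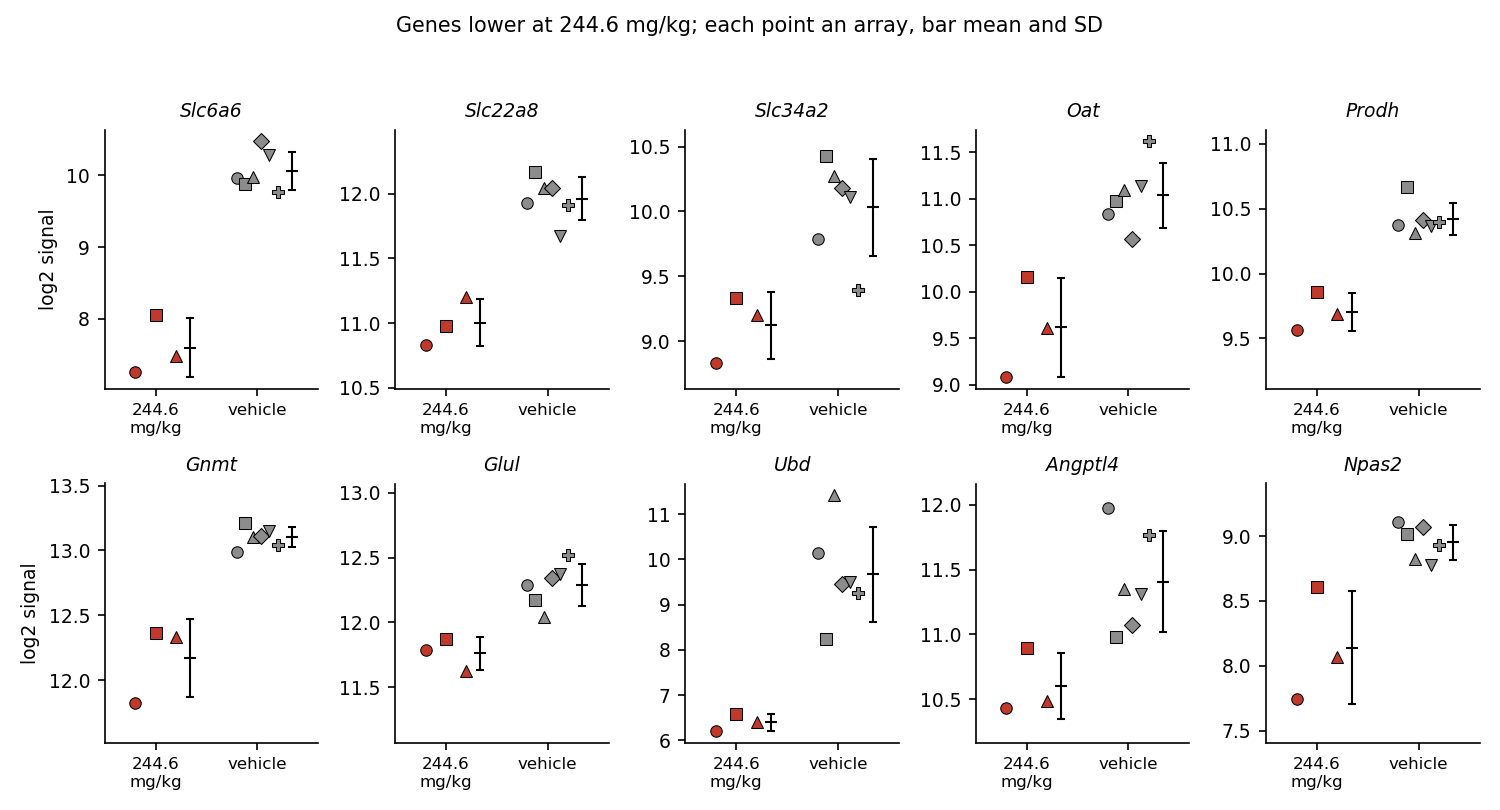
Log2 signals of 10 genes that fell, on each array, 244.6 mg/kg (red) left of vehicle (grey), with the mean and SD beside each group. No treated array reaches the vehicle range in any panel. Except for Prodh and Glul, the genes shown were named as largest falls by a rule that required this separation. Ubd has the widest vehicle spread and Slc6a6 the clearest gap.

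Calls in the lipid lists lay near or under the 2.95% of all genes called. Among 24 cholesterol synthesis genes none was called (median 0.11): Fdft1, squalene synthase, differed by 0.28 ± 0.14 (limma, adjusted p = 0.405) and Fdps, farnesyl diphosphate synthase, by 0.28 ± 0.14 (adjusted p = 0.362). Among 36 genes of fatty acid and triglyceride synthesis, Me1 alone was called. Among 55 targets of the fatty acid receptor PPARA, Me1 rose and Angptl4 fell, and the hydroxylase Cyp4a1 differed by -0.51 ± 0.26 (adjusted p = 0.408). Cidea, a lipid droplet protein, had 9.58, 9.51 and 10.11 at 244.6 mg/kg, against 8.73, 8.24, 7.56, 8.74, 8.20 and 8.55 in vehicle livers; the groups did not overlap, and the difference of 1.39 ± 0.40 missed the threshold (limma, adjusted p = 0.0687). Among 24 genes of bile acid synthesis and transport none was called, and Cyp7a1, the rate-limiting enzyme of bile acid synthesis, differed by 0.77 ± 0.39 (adjusted p = 0.402).

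Calls in the housekeeping lists also lay near or under 2.95%. None of 28 ribosomal protein genes, 37 respiratory chain genes or 22 heat shock genes was called, and of 32 proteasome genes only Psme1, an activator subunit, rose (0.30 ± 0.07; limma, adjusted p = 0.0159), a call lost without any 1 of the 3 treated arrays and with the mean of its probe sets (0.17; limma, adjusted p = 0.255). Of 33 complement and coagulation genes, 1 was called: Masp1, a protease of the lectin pathway, fell by 0.43 ± 0.11, a call lost in 6 of the 9 fits that left out an array (each of the 3 treated arrays and vehicle replicates 1, 5 and 6) and with the mean of its probe sets (-0.13; limma, adjusted p = 0.39). All 3 treated arrays lay below all vehicle arrays for 15 of these 33 genes, against 3.07% of all genes.

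**Figure D5:**
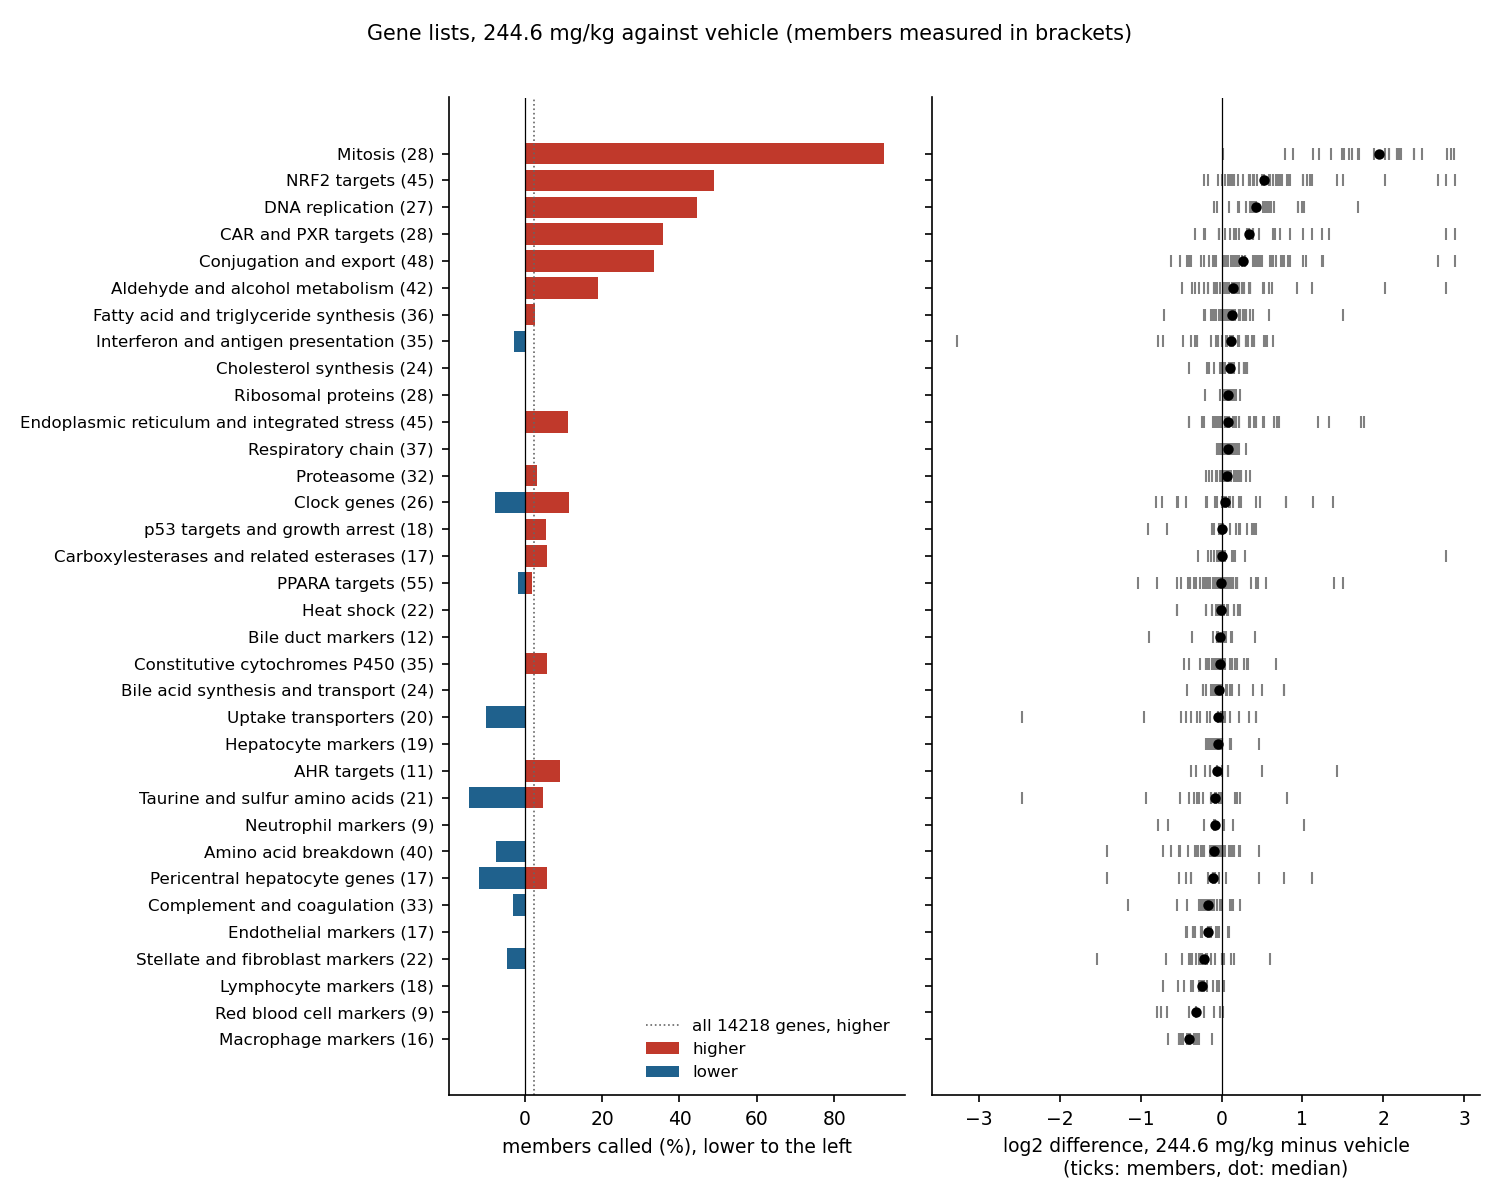
For each gene list (number measured in brackets), the share of members called higher (red, right) or lower (blue, left) at 244.6 mg/kg against vehicle, and the log2 difference of every member (ticks) with the list median (dot). Mitosis, NRF2, DNA replication, CAR and PXR, and conjugation genes have the largest shares called higher, and the macrophage list has the lowest median.

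Markers of other liver cells are given because the share of each cell type sets the signal of its genes. None of 16 macrophage markers was called, but all 16 means were below vehicle (median -0.40), and the mean log2 level of the list was 9.32 to 9.90 at 244.6 mg/kg and 9.74 to 10.23 in vehicle livers. The haemoglobin scavenger receptor Cd163 differed by -0.66 ± 0.21 (limma, adjusted p = 0.0989), the Kupffer cell lectin Clec4f by -0.52 ± 0.25 (adjusted p = 0.354) and the growth factor receptor Csf1r by -0.52 ± 0.25 (adjusted p = 0.356). Of the treated arrays, replicate 1 had the lowest macrophage list median, -0.75, and the highest mitosis list median. The same pairing was seen among vehicle arrays and at 61.2, 122.5 and 978.5 mg/kg. It failed at 489.2 mg/kg, where replicate 1 stood at -1.20 for macrophages and -0.40 for mitosis. By dose the macrophage list median was also below vehicle at 61.2 (-0.11), 122.5 (-0.32), 489.2 (-0.31) and 978.5 mg/kg (-0.57), where no mitosis gene was called. None of 18 lymphocyte markers was called, with 17 means below vehicle (median -0.24) and list levels of 5.88 to 6.23 at 244.6 mg/kg and 6.20 to 6.54 in vehicle livers; Ccl5, a T cell chemokine, differed by -0.73 ± 0.24 (adjusted p = 0.129).

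Red blood cell markers had list levels of 6.95 to 7.26 at 244.6 mg/kg and 7.15 to 7.66 in vehicle livers, with 0 of 9 called (median -0.32); Hba-a3 differed by -0.80 ± 0.32 (limma, adjusted p = 0.24) and Hbb by -0.67 ± 0.34 (adjusted p = 0.396). None of 17 endothelial (median -0.17), 12 bile duct, 9 neutrophil or 19 hepatocyte markers was called. Of 22 stellate cell and fibroblast markers 1 fell, the growth factor receptor Pdgfra (-0.37 ± 0.09; limma, adjusted p = 0.035), a call lost in 6 of the 9 fits that left out an array (each treated array and vehicle replicates 1, 2 and 5). The means of macrophage, lymphocyte and red cell markers were thus below vehicle while mitosis genes rose, and their part in the rises and falls described was not tested.

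Setting 244.6 mg/kg against the neighbouring doses asks which of these differences belong to this dose. Against 489.2 mg/kg, 242 of 14218 genes differed (1.7%), 213 of them higher and 29 lower (0.204%) at 244.6 mg/kg. The 5 largest rises were all of cell division. Cdkn3 had log2 levels of 10.66, 10.29 and 9.46 at 244.6 mg/kg, against 4.85, 7.46 and 4.66 at 489.2 mg/kg, a difference of 4.48 ± 1.01 (limma, adjusted p = 0.0213). Ect2 was 3.85 ± 0.88 higher, Ccna2 3.59 ± 0.74, Mki67 3.48 ± 0.70 and Ccnb2 3.21 ± 0.64. The groups did not overlap for any of these 5, and replicate 2 of 489.2 mg/kg was the highest of its group in each.

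The 5 largest falls against 489.2 mg/kg were of other kinds of genes. Usp2, a deubiquitinase with a daily rhythm, had 7.16, 6.57 and 7.08 at 244.6 mg/kg, against 8.35, 8.36 and 8.18 at 489.2 mg/kg, a difference of -1.36 ± 0.25 (limma, adjusted p = 0.00858). Cers6, a ceramide synthase, differed by -1.11 ± 0.26, Tfrc, the transferrin receptor, by -1.11 ± 0.23, Hsph1, a chaperone, by -1.03 ± 0.20 and Eri2 by -1.03 ± 0.23; with the mean of its probe sets Eri2 differed by -0.43 and was not called (limma, adjusted p = 0.29). Of 22 heat shock genes, 3 were lower at 244.6 than at 489.2 mg/kg. Angptl4 and Npas2, both lower than vehicle at 244.6 mg/kg, were 1.17 and 0.98 higher there than at 489.2 mg/kg (limma, adjusted p = 0.01 and 0.0116).

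Ces2c, Abcc3, Gsta3, Cyp3a23-3a1 and Slc6a6 were not called between the doses: Ces2c differed by -0.54, Abcc3 by -0.35, Gsta3 by 0.64, Cyp3a23-3a1 by 0.23 and Slc6a6 by 0.30. The count against 489.2 mg/kg leaned on single arrays: it was 41 and 59 without replicates 1 and 2 of 244.6 mg/kg, 69 and 117 without replicates 1 and 3 of 489.2 mg/kg, and 339 without replicate 2 of 489.2 mg/kg was the highest. All 10 genes named as largest lost the call without replicate 2 of 244.6 mg/kg, 7 without replicate 1, and 9 and 8 without replicates 1 and 3 of 489.2 mg/kg.

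Against 122.5 mg/kg no gene was called (0 of 14218; limma, smallest adjusted p = 0.152), and 677 genes had an unadjusted p below 0.05. Without replicate 3 of 244.6 mg/kg 32 genes were called, all higher; array weights, an alternative that lets each array count by how well it matches its group, called 477. Of the large differences named against vehicle, that of Ces2c was 0.59 here, that of Abcc3 1.26 and that of Slc6a6 -1.10. Cdkn3 differed by 2.62 (95% interval 0.52 to 4.72) and Mki67 by 2.16 (0.69 to 3.62), both with wide intervals. In numbers of called genes against vehicle, the doses gave 2 at 61.2 (0.0141%), 16 at 122.5 (0.113%), 420 at 244.6, 412 at 489.2 (2.9%) and 1457 at 978.5 mg/kg (10.2%); these comparisons share the 6 vehicle arrays. At 489.2 mg/kg 215 genes were higher (1.51%) and 197 lower (1.39%), and at 978.5 mg/kg 878 were higher (6.18%) and 579 lower (4.07%).

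Genes that handle foreign compounds and the taurine transporter Slc6a6 differed from vehicle in their means at several doses, although not all of these differences were called. Ces2c differed by 1.24, 2.19, 2.78, 3.32 and 3.79 at 61.2, 122.5, 244.6, 489.2 and 978.5 mg/kg, and Slc6a6 by -0.46, -1.37, -2.46, -2.77 and -3.71. Gsta3 differed by 1.47, 1.70, 2.68, 2.04 and 2.91, and Akr7a3, with its largest mean difference at 244.6 mg/kg, by 1.10, 1.48, 2.02, 1.26 and 1.47. Ces2c, Slc6a6 and Akr7a3 were not called at 61.2 mg/kg, and Slc6a6 was not called at 122.5 mg/kg either. Mki67 differed by 0.56, 0.64, 2.79, -0.69 and 0.74. The Ces2c mean was higher at each dose than at the one below it, while Mki67 was called against vehicle at 244.6 mg/kg alone.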

How the data were processed

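The 21 liver samples were measured on Affymetrix arrays. The deposited values are log2 signals normalised with RMA per the submitters' processing notes, and the RMA version was not given in the sources used here. RMA corrects background, sets all arrays to 1 distribution and sums the probes of a set, so a shift of all genes cannot be seen. The table held 31099 probe sets. Of these, 20832 had 1 gene symbol in the platform annotation, 436 had several and 9831 had none. The probe set with the highest mean stood for each of 14218 genes.

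Group means were fitted over all 21 arrays with limma 3.58.1 in R 4.3.3 (lmFit and eBayes, 15 residual degrees of freedom). The contrasts were 244.6 mg/kg against vehicle, 122.5 mg/kg and 489.2 mg/kg. Genes were called at a Benjamini-Hochberg adjusted p below 0.05 over all genes, and every adjusted p is from this test. The procedure was tested on simulated data, but no outcome is given here and no call rests on that test. Low signals were kept, since no detection calls were used, and the number of arrays limits the precision.

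Lists held up to 55 measured genes; a list is described by its counts and median. The members and lists were chosen with earlier results of these data known. Genes were named by rule: the 12 largest called rises and falls whose 3 treated arrays lay beyond all vehicle arrays, up to 5 members of each list with the smallest p, known genes of the field, and the 5 largest called rises and falls against each neighbouring dose; some were left out for length. Genes named outside the rule are marked. Promoters of 300 bases came from RefSeq GRCr8, matched for 11734 genes.

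Same-numbered arrays of different groups did not deviate together (median r = 0.0603 against -0.0232 for other numbers; 0.0749, -0.0828 and -0.0135 for 244.6 mg/kg and vehicle), so the numbers were not taken as pairs. Alternatives were other probe set rules, filters, scalings, array weights, a replicate block, a fit of only the arrays compared, and leaving out each array.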

Additional observations from a re-analysis of the deposited data

Results flagged for a closer look

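For 8 of 101 genes and 1 of 34 lists looked at, 1 vehicle array lay far from the other 5; chance marks about 1 in 20. Vehicle replicate 6 was high for the neutrophil genes S100a8 (7.39) and S100a9 (9.29), where no other vehicle array passed 5.25 or 7.02, and it also correlated least with its group. Vehicle replicate 3 was low for Kif11 (5.16) and Masp1 (10.56) and high for the median of the NRF2 targets (0.067). Vehicle replicate 2 was low for Per3 (4.83) and high for Prodh (10.67). Vehicle replicate 4 was high for Akr7a3 (11.81), and vehicle replicate 1 was low for Hbb (12.34). The calls of Kif11, Prodh and Akr7a3 held without the array concerned, the call of Masp1 held without vehicle replicate 3, and the call of Per3 was lost without vehicle replicate 2.

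Between 244.6 and 489.2 mg/kg the difference from vehicle itself differed for 242 genes (limma, adjusted p below 0.05). Mitosis genes made up 26 of them, all higher at 244.6 mg/kg.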

How the results depend on the processing

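The count of genes called against vehicle was 420, of which 85.5% were higher. It was 250 among genes above the median level, where fewer genes were tested, 766 with array weights and 209 with an added 1.5-fold minimum; leaving out 1 array gave 112 to 437. The share higher was 77% with array weights and 80.1% to 87.8% under the other full fits that kept all 3 treated arrays. Against 122.5 mg/kg the count of 0 became 477 with array weights, 12 with a floor at the 20th percentile (5.56 on the log2 scale), and 0 to 32 on leaving out 1 array. Against 489.2 mg/kg the count of 242 became 93 among genes above the median level, 99 with only the arrays compared in the fit, 159 with the floor, and 41 to 339 on leaving out 1 array. Called mitosis genes numbered 26 in the main fit, 8 to 27 on leaving out 1 array, and 1 of the 1 tested above the median level. Apart from the smaller sets of genes or arrays, the cause was not tested.

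The replicate block gave 383 genes against vehicle (320 higher and 63 lower), 0 against 122.5 mg/kg and 257 against 489.2 mg/kg. Only vehicle had replicates 4 to 6, so in this fit those arrays added nothing to the difference from vehicle. Under it 16 of the 73 called genes named in the text lost the call against vehicle, Ect2, Ubd and Glul among them, and none of the 10 named against 489.2 mg/kg did. Of the 73, 37, 18 and 15 lost the call without replicates 1, 2 and 3 of 244.6 mg/kg, and 3 to 7 without a vehicle array. No called gene named in the text changed sign under any alternative run. Kif23, which was not called, changed sign: -0.000186 with array weights, -0.039 with the replicate block, and -0.023 to 0.061 on leaving out 1 array. Signals were not tested against background, so low probe sets, mitosis genes among them, may hold understated folds.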
